A study of Mus musculus with 8 samples.

Results

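TNF, the receptors it binds and a small set of related ligands and signalling genes were followed in RNA sequencing libraries of mouse peritoneal macrophages. The 10 genes were taken by symbol from the deposited table: Tnf, Tnfsf10, Tnfsf12, Tnfsf13, Tnfsf13b, Tnfrsf1a, Tnfrsf1b, Fas, Ripk1 and Tnfaip2. They occupy 9 of the 23735 loci of the table, because Tnfsf12 and Tnfsf13 are listed under 1 locus with the same values and could not be told apart. The macrophages came from C57BL/6J mice aged 8 weeks. KO here stands for the libraries labelled MED1-/-, from mice in which MED1 was deleted in macrophages, and WT for those labelled WT, from mice with the unrecombined floxed Med1 alleles. MED1 is a subunit of Mediator, the complex that links transcription factors to RNA polymerase. The 4 groups, with 2 libraries each (A and B), were KO given lipopolysaccharide (LPS, a bacterial cell wall component) at 50 ng/mL for 6 h, KO without LPS, WT with the same LPS treatment, and WT without LPS. The labels do not say which Cre deleted MED1, whether animals were pooled, or whether the A and B libraries came from separate animals, so p-values here measure change against the spread between these libraries.

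TNF is a cytokine that macrophages release within hours of sensing LPS. It is made as a membrane-bound trimer and shed by a protease. It acts through TNF receptor 1, encoded by Tnfrsf1a and present on most cells, which carries a death domain, and through TNF receptor 2, encoded by Tnfrsf1b, which is found mainly on immune cells and has no death domain. At TNF receptor 1 the kinase RIPK1 sits at the branch between NF-kB signalling and cell death. Related ligands of the superfamily include TRAIL (Tnfsf10) and TWEAK (Tnfsf12), and also APRIL (Tnfsf13) and BAFF (Tnfsf13b), which sustain B cells and plasma cells. Fas is a death receptor for Fas ligand, and Tnfaip2 was named as a gene that TNF induces.

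In mm9 coordinates, from the GENCODE vM1 annotation matched by symbol, Tnf lies on chromosome 17 at 35336326 to 35338952 on the minus strand, 1157 bases from Lta and 3060 bases from Ltb, which encode lymphotoxins. Tnfsf12 (chromosome 11, 69499752 to 69509351, minus strand) and Tnfsf13 (69496348 to 69499286, same strand) are 465 bases apart. Another annotated gene on the same strand, BC096441, spans both of them, and the transcript 2010012P19Rik overlaps them on the opposite strand. The receptors lie on chromosome 6 (Tnfrsf1a, 125299380 to 125312502), chromosome 4 (Tnfrsf1b, 144803366 to 144836773) and chromosome 19 (Fas, 34365149 to 34402260). Tnfsf10 is on chromosome 3, Tnfsf13b on chromosome 8, Ripk1 on chromosome 13 and Tnfaip2 on chromosome 12. Ripk1 shares 2108 bases with Gm17084 on the same strand, and 1366 bases with the pseudogene Gm17083 and 432 with Serpinb6a on the opposite strand. With no record of strand in the counting, reads of such partners cannot be told apart.

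Promoter sequences (250 bases before to 50 after an annotated start, RefSeq, build GRCm38.p6) were found for 9 of the 10 genes, with 11 start sites. Those of the 4 genes whose values were higher with LPS in both genotypes and whose libraries did not overlap are shown, to set these genes beside each other. Fas did not pass the test in either genotype. Of all loci tested, 15.1% in KO and 18.2% in WT were higher with LPS without overlap, and the share in both genotypes was not computed. Tnf is at chr17:35201958-35202257 on the minus strand, Tnfrsf1b at chr4:145246821-145247120 on the minus strand, Fas at chr19:34290409-34290708 on the plus strand and Tnfaip2 at chr12:111442411-111442710 on the plus strand. Each is written 5′ to 3′ along its gene, with capitals for motif matches.
Tnf: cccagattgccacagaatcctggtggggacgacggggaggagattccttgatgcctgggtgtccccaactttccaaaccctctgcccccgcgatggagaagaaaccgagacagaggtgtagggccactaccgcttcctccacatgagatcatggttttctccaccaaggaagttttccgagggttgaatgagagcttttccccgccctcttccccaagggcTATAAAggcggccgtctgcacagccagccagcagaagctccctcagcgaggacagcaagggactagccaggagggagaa
Tnfrsf1b: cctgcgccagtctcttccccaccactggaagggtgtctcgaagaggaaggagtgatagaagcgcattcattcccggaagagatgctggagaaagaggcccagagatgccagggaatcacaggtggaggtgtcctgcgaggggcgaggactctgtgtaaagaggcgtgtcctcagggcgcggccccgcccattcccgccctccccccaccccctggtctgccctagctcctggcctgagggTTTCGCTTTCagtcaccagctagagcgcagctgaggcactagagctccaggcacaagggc
Fas: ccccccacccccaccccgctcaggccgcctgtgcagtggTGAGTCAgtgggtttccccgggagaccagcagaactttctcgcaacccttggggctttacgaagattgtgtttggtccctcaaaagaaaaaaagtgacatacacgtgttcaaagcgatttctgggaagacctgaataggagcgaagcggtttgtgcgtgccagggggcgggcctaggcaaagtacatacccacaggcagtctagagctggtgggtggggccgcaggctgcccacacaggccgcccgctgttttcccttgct
Tnfaip2: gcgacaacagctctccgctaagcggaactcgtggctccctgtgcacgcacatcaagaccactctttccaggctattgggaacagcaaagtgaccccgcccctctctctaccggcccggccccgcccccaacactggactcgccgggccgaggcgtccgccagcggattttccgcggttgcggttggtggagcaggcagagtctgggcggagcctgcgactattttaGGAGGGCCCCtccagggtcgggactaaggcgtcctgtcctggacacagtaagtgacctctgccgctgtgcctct
The motifs were searched on both strands. They were the TATA box (TATAAA), the AP-1 site (TGANTCA), the interferon-stimulated response element and the NF-kB consensus, the last 2 of which are given by name alone. The matches did not overlap each other. Tnf held a TATA box from -29 to -24, counted from the start site, a motif present in 13.6% of the 32851 promoters of the same length. Tnfrsf1b held an interferon-stimulated response element from -10 to -1 (3.44% of promoters). Fas held an AP-1 site from -211 to -205 (7.81% of promoters), and Tnfaip2 an NF-kB consensus match from -24 to -15 (8.46% of promoters). The 4 promoters thus had no motif of this set in common. Among the members not shown, Tnfsf13 and Tnfsf13b also held an AP-1 site, and Tnfsf13b and Ripk1 an interferon-stimulated response element. These matches are a description of the letters and not of bound sites.

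Levels are given in RPKM, in which reads are scaled by transcript length and library depth. Estimated depth was about 6930000 to 14270000 mapped reads a library. A and B libraries correlated at r = 0.93 to 0.966 within groups, across loci, which are not independent. Med1 itself was at 24.4 and 20.3 RPKM in KO with LPS, 17.6 and 23.4 in KO without LPS, 24.7 and 21.6 in WT with LPS, and 21.7 and 24.8 in WT without LPS, so its total did not mark the genotype. RPKM of a locus sums over its exons, including any left after recombination, and which exons were deleted is not stated in the labels. Of 10 macrophage marker loci, all were detected, with a summed level of 8342 to 35703 RPKM. The sum was lower in the 4 KO libraries (8342 to 18210.1) than in the 4 WT libraries (18656 to 35703), mostly through Lyz2. Emr1, a macrophage surface receptor gene, was at 277 to 709 RPKM in KO and at 396 to 449.7 in WT, which overlapped. Other cell types were present. The 10 B cell loci summed to 1477 and 1088 RPKM in KO with LPS, 627 and 1910.3 in KO without LPS, 649.7 and 451 in WT with LPS, and 682 and 641 in WT without LPS (A and B). The 9 T and NK cell loci summed to 20.1 to 94.3 RPKM and the 6 neutrophil loci to 39.8 to 136, with Ngp at 0 throughout. The 6 mesothelial and fibroblast loci stayed at or below 10.3 RPKM in sum. Mast cell markers (6 loci) were higher in B than in A in each group. They summed to 3.06 and 71.7 RPKM in KO with LPS, 0.249 and 168 in KO without LPS, 25.2 and 87.7 in WT with LPS, and 0.961 and 73.6 in WT without LPS. The part of these cells in the results below was not tested, and in bulk samples fewer cells of a type and less RNA per cell cannot be told apart.

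Among the ligands, Tnf had the largest change with LPS of the 9 loci in KO. In WT its change of 3.35 lay close in size to the -3.02 of the Tnfsf12 and Tnfsf13 locus, and without WT LPS B these were 2.39 and -2.40. Tnf was at 680.3 and 1881 RPKM in KO with LPS, against 18.1 and 12.3 in KO without LPS (A and B). In WT it was at 115 and 436 RPKM with LPS, against 16.0 and 27.8 without. The LPS libraries lay above the untreated ones in both genotypes without overlap, and library B was the higher of each LPS pair. Group means were 1281 ± 849 RPKM in KO with LPS and 15.2 ± 4.16 in KO without, and 275 ± 227 in WT with LPS and 21.9 ± 8.35 in WT without (SD, n = 2 each). On the scale of log2(RPKM + 1), on which all changes below are given, Tnf rose by 6.15 in KO (SE 0.70, limma with Benjamini-Hochberg adjusted p = 0.00933) and by 3.35 in WT (SE 0.70, adjusted p = 0.037). Within libraries A the ratio of LPS to untreated was 37.5 in KO and 7.18 in WT, and within libraries B it was 153 in KO and 15.7 in WT. The call in KO was lost without KO LPS B (5.42, adjusted p = 0.0874) or KO untreated B (5.89, adjusted p = 0.056), and with no filter on low values (0.119). The call in WT was lost without WT LPS B (2.39, adjusted p = 0.184), WT untreated A (2.97, 0.207) or B (3.73, 0.109), KO untreated A (3.35, 0.0538) or KO untreated B (3.35, 0.0539), with WT libraries alone (0.0777), and with no filter (0.202). Mast cells also make TNF, and their summed markers were higher in B in each group, as given above. Untreated KO B had the highest mast cell sum (168 RPKM) and the lowest Tnf (12.3 RPKM). The part of mast cells in the level of Tnf was not tested.

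Tnfsf12 and Tnfsf13, which encode TWEAK and APRIL and were measured as a single locus, moved in the opposite direction. The locus was at 33.7 and 10.3 RPKM in KO with LPS, against 134 and 81.7 without, and at 19.3 and 7.46 RPKM in WT with LPS, against 133 and 83.7 without. The groups did not overlap, and library A was the higher in each of the 4 groups. The change passed in WT, where the locus fell by 3.02 (log2 change -3.02, SE 0.61, limma adjusted p = 0.035), and did not in KO (-2.42, SE 0.61, adjusted p = 0.0605; 0.00368 with the library letter as a block). The mean was 8.11 times lower with LPS than without in WT, and 4.91 times lower in KO. The difference between the genotypes' responses was 0.61 (95% interval -1.43 to 2.64, adjusted p = 1). The WT call was lost without WT LPS B (-2.40, adjusted p = 0.21), WT untreated A (-2.69, 0.201) or B (-3.36, 0.106), with WT libraries alone (0.0591), and with no filter (0.195). The neighbouring gene Senp3, a protease for the SUMO modifier that lies 761 bases beyond Tnfsf13, had changes of -0.47 in KO (adjusted p = 0.227) and -0.54 in WT (adjusted p = 0.179).

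Tnfsf13b, the BAFF gene, was low in all libraries. It was at 0.297 and 0.0726 RPKM in KO with LPS, against 1.32 and 2.91 without, and at 0.383 and 0 RPKM in WT with LPS, against 0.903 and 1.34 without. Its low values were whole multiples of the same step, which gives about 5 and 1 reads in KO with LPS, 31 and 36 in KO without LPS, 7 and 0 in WT with LPS, and 13 and 23 in WT without LPS. An estimate from its longest annotated transcript and the library depth was lower, at 2.8 and 0.6 reads in KO with LPS and 17.6 and 20.4 without. The untreated libraries lay above the LPS libraries in both genotypes. The log2 change was -1.35 in KO (SE 0.34, adjusted p = 0.0571; 0.0435 with the library letter as a block) and -0.84 in WT (SE 0.34, adjusted p = 0.15). Its size depends on the pseudocount: with 0.1 in place of 1 the change was -2.98 in KO (adjusted p = 0.0963) and -2.45 in WT (0.138). The gene passed the low-value filter through its untreated libraries alone, so its direction with LPS is no support for a response of the family. Untreated KO B, its highest library, also held the highest sums of B cell, T cell and mast cell markers, and the part of those cells was not tested.

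Tnfsf10, the TRAIL gene, was at 0.655 and 1.17 RPKM in KO with LPS, against 0.256 and 2.27 without, and at 0.57 and 1.08 RPKM in WT with LPS, against 0.329 and 0.44 without. The KO groups overlapped, and the highest value was again in untreated KO B. Its log2 change was -0.10 in KO (SE 0.45, 95% interval -1.15 to 0.95) and 0.39 in WT (-0.66 to 1.43), and neither passed (limma adjusted p = 0.899 and 0.589). With a pseudocount of 0.1 these were 0.09 and 0.89. The value in KO was 0.59 without untreated KO B, 0.10 without KO LPS A, and 0.06 with libraries scaled by median ratios.

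The plot of all 9 loci by library shows these values beside those of the receptors and signalling genes.

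**Figure D1:**
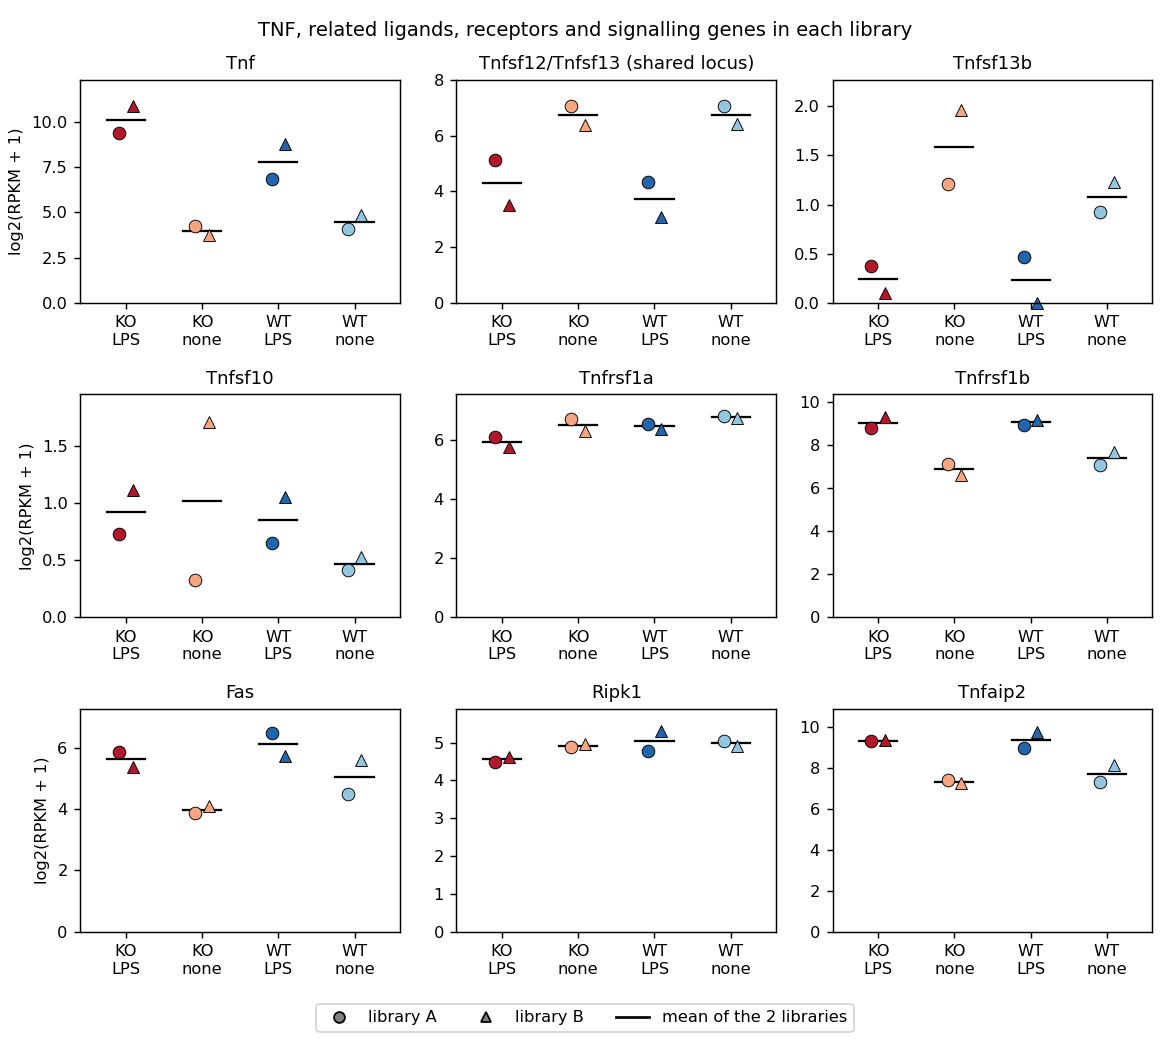
Expression of the 9 loci in each library, as log2(RPKM + 1) on the vertical axis of each panel, for KO with LPS, KO without LPS, WT with LPS and WT without LPS from left to right; circles are A libraries, triangles B libraries and bars the mean of 2 libraries. Tnf, Tnfrsf1b and Tnfaip2 stand higher with LPS in both genotypes, the Tnfsf12 and Tnfsf13 locus lower, and Tnf at 680.3 and 1881 RPKM is highest in KO with LPS.

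Of the receptors for TNF, Tnfrsf1b passed with LPS and Tnfrsf1a did not; the difference between them was not tested. Tnfrsf1b, encoding TNF receptor 2, was at 445 and 623 RPKM in KO with LPS, against 139 and 98.0 without, and at 496 and 577 RPKM in WT with LPS, against 135 and 206 without. The LPS libraries lay above the untreated ones in both genotypes, with means of 534 and 119 RPKM in KO and of 536 and 170.4 RPKM in WT (LPS, then untreated). Tnfrsf1b rose by 2.16 in KO (SE 0.31, limma adjusted p = 0.0154) and by 1.67 in WT (SE 0.31, adjusted p = 0.027). In KO the call was lost without KO LPS A (2.40, adjusted p = 0.0586), KO LPS B (1.92, 0.129) or KO untreated B (1.91, 0.0667), and with no filter (0.122). In WT it was lost without WT LPS B (1.57, adjusted p = 0.163), WT untreated A (1.37, 0.178) or B (1.97, 0.0708), with WT libraries alone (0.0629), and with no filter (0.149).

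Tnfrsf1a, encoding TNF receptor 1, was at 68.7 and 53.9 RPKM in KO with LPS, against 104 and 78.8 without, and at 93.1 and 82.8 RPKM in WT with LPS, against 112 and 107 without. Each LPS library lay below the untreated libraries of its genotype, but the change did not pass in KO (-0.56, 95% interval -1.08 to -0.05, limma adjusted p = 0.143) or in WT (-0.32, -0.83 to 0.20, adjusted p = 0.363). The median change of all loci was -0.28 in KO and -0.25 in WT. With libraries scaled by median ratios these medians were -0.02 and 0.00, and Tnfrsf1a had changes of -0.26 in KO and -0.03 in WT. In each of the 8 libraries the level per kilobase was higher for Tnfrsf1b than for Tnfrsf1a. The mean of Tnfrsf1b was 534 RPKM beside 61.3 of Tnfrsf1a in KO with LPS, and 119 beside 91.3 in KO without LPS.

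Fas was at 56.8 and 40.8 RPKM in KO with LPS, against 13.5 and 16.2 without, and at 88.0 and 52.5 RPKM in WT with LPS, against 21.7 and 47.5 without. The LPS libraries lay above the untreated ones in both genotypes, narrowly so in WT. The log2 change was 1.64 in KO (SE 0.40, limma adjusted p = 0.057) and 1.06 in WT (SE 0.40, adjusted p = 0.139). The KO change passed with the library letter as a block (adjusted p = 0.0413), with KO libraries alone (0.0383) and with median-ratio scaling (1.93, 0.0305), and also without any 1 of the 4 WT libraries (0.0441 to 0.0474). Without WT untreated A, the WT change was 0.51, and without WT LPS A it was 0.69.

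Of the signalling genes, Tnfaip2 was at 635 and 654 RPKM in KO with LPS, against 169.9 and 154 without, and at 499 and 879 RPKM in WT with LPS, against 158 and 284 without. The groups did not overlap, and the KO libraries were close to each other with and without LPS. Tnfaip2 rose by 1.99 in KO (SE 0.36, limma adjusted p = 0.0267) and by 1.64 in WT (SE 0.36, adjusted p = 0.0433). In KO the call was lost without KO LPS A (adjusted p = 0.0988), KO LPS B (0.19), KO untreated A (0.0665) or KO untreated B (0.107), and with no filter (0.168). In WT it was kept without WT LPS A (2.05, adjusted p = 0.0229) and lost without any other library (0.0559 to 0.23), with WT libraries alone (0.107) and with no filter (0.192).

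Ripk1, the kinase recruited to TNF receptor 1, was at 21.6 and 23.7 RPKM in KO with LPS, against 28.4 and 30.2 without, and at 26.3 and 38.8 RPKM in WT with LPS, against 32.0 and 29.1 without. The KO libraries were lower with LPS without overlap and the WT libraries overlapped. Ripk1 had changes of -0.36 in KO (95% interval -0.88 to 0.16, limma adjusted p = 0.306) and 0.06 in WT (-0.46 to 0.58, adjusted p = 0.874). With median-ratio scaling these were -0.06 and 0.35.

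In all, 3 of the 9 loci rose and 0 fell with LPS in KO, where 6.62% of the 11272 loci tested were called, 3.31% in each direction. In limma 7 of the 9 loci had an unadjusted p under 0.05 in KO, against 29.2% of all loci. In WT 3 rose and 1 fell, where 6.31% of all loci were called, 3.17% as higher and 3.14% as lower, and 6 of the 9 loci had an unadjusted p under 0.05, against 29.3% of all loci. All 9 loci passed the filter of 1 RPKM in at least 2 libraries, and the medians of their changes were -0.10 in KO and 0.39 in WT. Without overlap between LPS and untreated libraries, 4 were higher and 4 lower in KO (15.1% and 48% of all loci), and 5 higher and 3 lower in WT (18.2% and 45.9%). Tnfsf13b is among the loci with an unadjusted p under 0.05 and among the lower loci, in both genotypes. It passed the filter through its untreated libraries alone, so its part in these counts and in the medians is no support for a response. The count called in KO was 0 without KO LPS B or KO untreated B, 1 without KO LPS A, and 6 without either WT LPS library. In WT it was 0 without WT LPS B or either untreated WT library, and 2 without KO untreated A or KO untreated B. With the library letter as a block it was 6 in KO, Tnfsf13b among them, and 4 in WT. Of all 11272 loci, 1611 were called in KO and 1818 in WT with the block.

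The order of levels per kilobase changed with LPS. In KO with LPS the means ran from Tnf (1281 RPKM) through Tnfaip2 (645) and Tnfrsf1b (534) to Tnfrsf1a (61.3), Fas (48.8), Ripk1 (22.6), the Tnfsf12 and Tnfsf13 locus (22.0), Tnfsf10 (0.912) and Tnfsf13b (0.185). Of these neighbours, Tnfrsf1a overlapped with Fas and Ripk1 with the Tnfsf12 and Tnfsf13 locus. In KO without LPS, Tnfaip2 (162 RPKM) was followed by Tnfrsf1b (119), the Tnfsf12 and Tnfsf13 locus (108) and Tnfrsf1a (91.3), the last 3 overlapping in turn, and Tnf (15.2) lay beside Fas (14.8). In WT with LPS, Tnfaip2 (689 RPKM) and Tnfrsf1b (536) overlapped, and Tnf (275) came after them. In WT without LPS, Tnfaip2 (221 RPKM) and Tnfrsf1b (170.4) again overlapped, as did Tnfrsf1a (109.8) and the Tnfsf12 and Tnfsf13 locus (108), and Tnf (21.9) followed Ripk1 (30.6).

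Whether loss of MED1 altered the family was asked without and with LPS. With LPS, Tnf was at 680.3 and 1881 RPKM in KO, against 115 and 436 in WT, a ratio of 5.94 in libraries A and 4.31 in libraries B. Its libraries did not overlap, which held for 18.7% of all loci in that direction. The log2 difference was 2.33 (SE 0.70, 95% interval 0.70 to 3.96, unadjusted p = 0.0113), and it did not pass in limma over all loci (adjusted p = 0.989, and 0.468 to 1 over the alternatives run). It ranged from 1.37 without WT LPS A to 3.29 without WT LPS B, and was 3.07 without KO LPS A and 1.60 without KO LPS B. Without LPS, Tnf was at 18.1 and 12.3 RPKM in KO and at 16.0 and 27.8 in WT, which overlapped (-0.47, 95% interval -2.10 to 1.16, adjusted p = 1). The LPS response of Tnf was larger by 2.80 in KO than in WT (SE 0.98, 95% interval 0.50 to 5.11, unadjusted p = 0.0234), and this too did not pass (adjusted p = 1). It was 1.85 without WT LPS A and stayed above 0 without any 1 library, 3.76 being the highest value. Mast cell marker sums were 3.06 and 71.7 RPKM in KO with LPS and 25.2 and 87.7 in WT with LPS, which overlapped. B cell sums were 1477 and 1088 RPKM in KO with LPS and 649.7 and 451 in WT with LPS. The part of either cell type in the Tnf difference was not tested.

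Of the 9 loci, 0 passed in any comparison of KO with WT in limma. Of all loci 0.0266% were called without LPS (0.00887% higher and 0.0177% lower), 0.00887% with LPS, all of them lower, and 0.0355% for the difference in LPS response (0.0177% in each direction). At an unadjusted p under 0.05 there were 1 of 9 without LPS (Fas), 2 of 9 with LPS (Tnf and Tnfrsf1a) and 1 of 9 for the difference in response (Tnf), against 0.834%, 4.42% and 1.63% of all loci. Fas was lower in KO than in WT in 4 of 4 pairs of the same letter and treatment, at 56.8 and 40.8 RPKM in KO against 88.0 and 52.5 in WT with LPS, and at 13.5 and 16.2 against 21.7 and 47.5 without. Its log2 difference was -1.07 without LPS (SE 0.40, 95% interval -2.02 to -0.12, adjusted p = 1) and -0.49 with LPS (-1.44 to 0.46, adjusted p = 1). Without LPS it lay between -1.62 and -0.53 when 1 library was left out. Tnfrsf1a was also lower in KO in 4 of 4 pairs, with differences of -0.28 without LPS (-0.79 to 0.24) and -0.52 with LPS (-1.04 to -0.01), both with adjusted p = 1. Among all loci 5.3% were lower in KO in each of the 4 pairs and 12.3% higher, and 0 of the 9 loci were higher in each. Without overlap between KO and WT libraries, 0 of the 9 were higher and 2 lower without LPS (Tnfrsf1a and Fas; 17.8% and 5.86% of all loci), and 1 was higher and 2 lower with LPS (Tnf, and Tnfrsf1a and Ripk1; 18.7% and 11.7%). Ripk1 with LPS had a difference of -0.48 (SE 0.22, adjusted p = 1). For Tnfrsf1b, Tnfaip2 and Tnfsf13b with LPS the differences were -0.02 (-0.74 to 0.70), -0.04 (-0.89 to 0.81) and 0.00 (-0.78 to 0.79), and for the Tnfsf12 and Tnfsf13 locus 0.60 (-0.84 to 2.03). The plot of changes with intervals shows how wide these are.

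**Figure D2:**
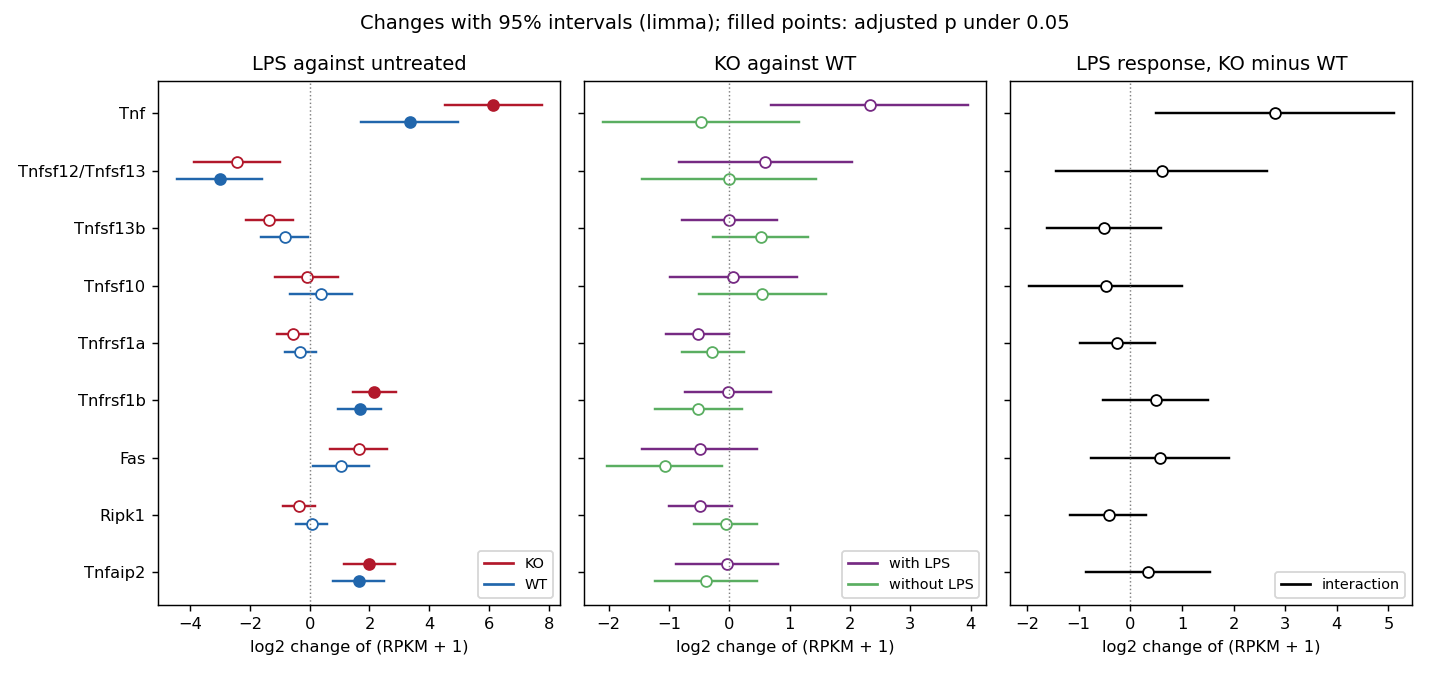
Log2 changes of RPKM + 1 on the horizontal axes with 95% intervals from limma for the 9 loci: LPS against untreated in KO and WT (left), KO against WT with and without LPS (middle) and the difference between the KO and WT responses to LPS (right). Filled points passed at an adjusted p under 0.05, which happened in the left panel alone. The Tnf difference with LPS is 2.33, with an interval of 0.70 to 3.96.

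The genes whose profile over the 8 libraries was most like that of Tnf were taken by the root mean square difference between profiles of log2(RPKM + 1), each centred on its own mean. The closest was Ccl3, which encodes a chemokine for monocytes (0.34 log2 units), followed by the cytokine Lif (0.74), the interleukin subunit Il12b (0.76), the EGF receptor ligand Areg (0.76) and the neutrophil chemokine Cxcl2 (0.78). Ccl3 was at 1725 and 3609 RPKM in KO with LPS, against 68.5 and 33.3 without, and at 459 and 1588 RPKM in WT with LPS, against 59.0 and 74.4 without. These genes were chosen for their likeness to Tnf over the same libraries, so their levels are a description and no test of them is given. Areg was at 21.2 and 53.1 RPKM in KO with LPS, against 0.0641 and 0.607 without, and at 6.40 and 55.1 RPKM in WT with LPS, against 0.417 and 0.261 without.

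**Figure D3:**
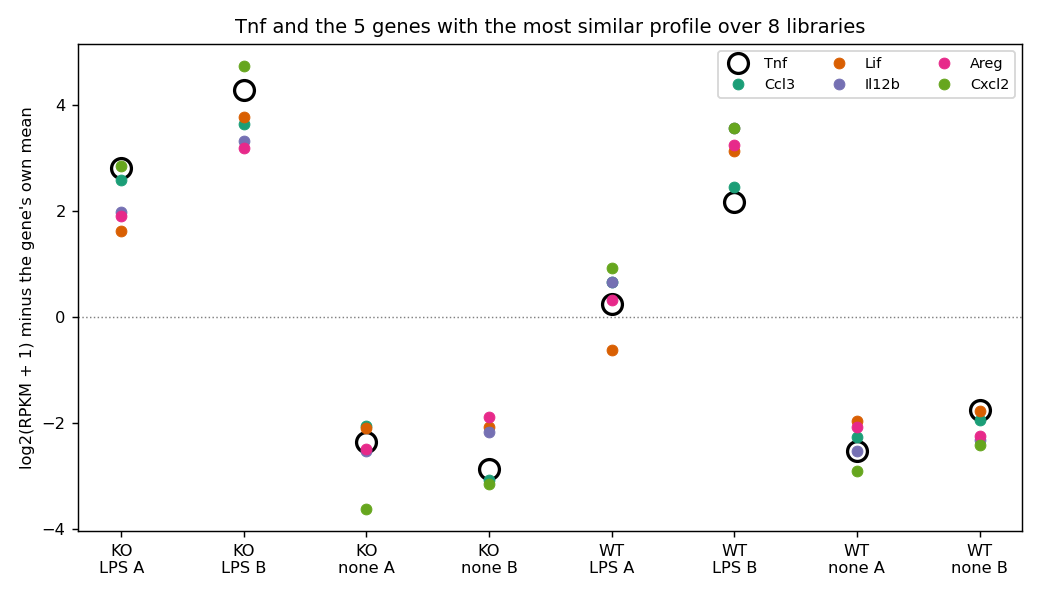
Profiles of Tnf (open circles) and the 5 most similar genes over the 8 libraries, as log2(RPKM + 1) minus each gene's own mean on the vertical axis and the libraries on the horizontal axis. All 6 genes are above their mean in KO LPS A, KO LPS B and WT LPS B and below it in the 4 untreated libraries; in WT LPS A, Lif lies below and the rest above.

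Other genes of the TNF system were counted from lists of ligands, receptors, receptor complexes, shedding and mRNA control, and TNF-induced proteins. Of all 11272 loci tested, 3.31% were called higher and 3.31% lower with LPS in KO, and 3.17% and 3.14% in WT. With the library letter as a block, 592 loci were called higher and 1019 lower in KO, and 644 and 1174 in WT. Of the 13 other ligands, 8 were tested, and 2 rose with LPS in KO and 0 in WT, with medians of 0.81 in KO and 0.52 in WT, beside -0.28 and -0.25 for all loci. They were Tnfsf9, the ligand of the T cell co-stimulator Tnfrsf9 (2.77, limma adjusted p = 0.0445; 1.71 in WT, 0.124, or 0.0448 with the library letter as a block), and Tnfsf4, the ligand of another T cell co-stimulator (2.68, adjusted p = 0.0185; 0.48 in WT, 0.464). Tnfsf4 was at 25.4 and 9.26 RPKM in KO with LPS, against 1.86 and 1.29 without, and at 4.65 and 4.21 RPKM in WT with LPS, against 2.58 and 3.21 without. Among the ligands not called, Tnfsf15 passed the filter through LPS libraries alone (2.2 RPKM in KO LPS B and 1.15 in WT LPS B). Its part in the ligand medians is thus no support for a response. Tnfsf15 falls outside the naming rule and was named after its values were seen. The neighbours of Tnf did not pass: Lta had changes of 0.72 in KO (adjusted p = 0.462) and 0.83 in WT (0.407), and Ltb of -0.11 in KO (0.952) and -0.25 in WT (0.894). Ltb, which lymphocytes express, was at 10.7 and 32.9 RPKM in KO with LPS, 7.23 and 55.5 in KO without, 5.96 and 16.0 in WT with LPS, and 5.58 and 24.5 in WT without, higher in B in each group as the T cell sums were. Fasl, the ligand of Fas, was at or below 0.515 RPKM in all libraries and was not tested.

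Of the other receptors, 24 of 25 had a locus and 17 were tested. In KO 1 rose and 1 fell, and in WT 2 rose and 0 fell, with medians of -0.13 and -0.14. With the library letter as a block these were 3 and 1 in KO and 2 and 1 in WT. The rises with the block in KO include Tnfrsf9 and Tnfrsf8 (limma adjusted p = 0.0596, and 0.0381 with the block). Tnfrsf8 passed the filter through the KO LPS libraries alone (1.42 and 2.06 RPKM), so its call and its part in the medians are no support for a response. It falls outside the naming rule and was named after its values were seen. The rises in WT include Tnfrsf9 in both fits. Cd40, a receptor for T cell help, rose by 3.28 in KO (limma adjusted p = 0.0204) and by 2.68 in WT (0.0329). It reached 145 and 208 RPKM in KO with LPS, against 10.5 and 27.0 without, and 51.8 and 133 RPKM in WT with LPS, against 11.7 and 12.5 without. Among the untreated libraries it was highest in KO B, as the B cell marker sum was, and the part of B cells was not tested. Tnfrsf9, a receptor of activated T cells, was at 5.30 and 14.5 RPKM in WT with LPS, against 0.234 and 0.391 without, and at 1.53 and 6.07 RPKM in KO with LPS, against 0.434 and 0.34 without. Its log2 change was 2.92 in WT (limma adjusted p = 0.0297) and 1.61 in KO (0.116, and 0.0481 with the library letter as a block). Tnfrsf9 passed the filter through LPS libraries alone, so its calls and its part in the medians are no support for a response. Cd27, a lymphocyte receptor, fell in KO (log2 change -1.90, limma adjusted p = 0.0422), at 0.672 and 1.90 RPKM with LPS, against 10.4 and 4.89 without. In WT the change of Cd27 was -0.09 (0.91), at 0.462 and 0.743 RPKM with LPS, against 0.391 and 1.06 without. Such low WT levels left little room for a fall. Untreated KO A, where Cd27 was highest, had the lowest T and NK cell sum (20.1 RPKM), and the part of lymphocytes was not tested. The tested receptors for TWEAK, TRAIL, APRIL and BAFF did not pass with LPS. Tnfrsf12a, the TWEAK receptor, had changes of -0.49 in KO and -1.02 in WT (adjusted p = 0.577 and 0.266). Tnfrsf10b, the mouse TRAIL death receptor, had 0.40 and 0.09 (0.368 and 0.866). Of the receptors for APRIL and BAFF, Tnfrsf13b had -0.18 and -0.36 (0.791 and 0.593) and Tnfrsf13c 0.21 and -0.16 (0.836 and 0.881), and Tnfrsf17 was listed at 0 in all libraries and not tested. Tnfrsf13c, a B cell gene, was highest in untreated KO B, at 29.7 RPKM, as the B cell marker sum was.

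Of 28 genes of TNF receptor complexes and cell death signalling, all were tested. In KO 5 rose and 0 fell, and in WT 3 rose and 0 fell, with medians of 0.09 and 0.24. With the library letter as a block 7 rose and 1 fell in KO and 6 rose and 1 fell in WT. Of all 11272 loci, 1611 were called in KO and 1818 in WT with the block. Tnfaip3, the ubiquitin-editing inhibitor of NF-kB, rose by 2.89 in KO (limma adjusted p = 0.0267) and by 2.40 in WT (0.0419). Cflar, which restrains caspase activation at death receptors, rose by 1.79 in KO (0.02) and by 1.81 in WT (0.0205). It averaged 150.2 ± 28.6 RPKM in KO with LPS and 42.2 ± 2.18 without, and 149.6 ± 52.2 RPKM in WT with LPS and 41.0 ± 6.49 without (SD, n = 2 each). Tank, an adaptor of the kinases TBK1 and IKKe, rose by 1.30 in KO (0.0201) and by 0.96 in WT (0.0412). Ikbkg, the regulatory subunit of the IkB kinase, rose by 1.20 in KO (0.039) and had a change of 0.59 in WT (0.174). Mlkl, which executes necroptosis, rose by 1.20 in KO (0.0469) and had a change of 1.11 in WT (0.0542; 0.0326 with the library letter as a block). Mlkl falls outside the limit of 4 genes a direction and was named after its values were seen.

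Of 12 genes of TNF shedding and mRNA control, 3 rose and 0 fell in KO and 2 rose and 0 fell in WT, with medians of 0.10 and 0.33. Rhbdf2, which carries the TNF sheddase ADAM17 to the cell surface, rose by 1.27 in KO (limma adjusted p = 0.0153) and by 1.31 in WT (0.0152). It was at 62.4 and 68.8 RPKM in KO with LPS, against 27.3 and 25.7 without, and at 71.9 and 82.6 RPKM in WT with LPS, against 29.0 and 32.1 without. Zc3h12a, an RNase that degrades inflammatory mRNAs, rose by 2.30 in KO (0.025) and by 2.19 in WT (0.0275), and Mapkapk2, a kinase that promotes the translation of Tnf mRNA, by 1.27 in KO (0.022), with a change of 0.59 in WT (0.121). Of 9 other TNF-induced protein genes, 7 were tested, with 2 up and 1 down in each genotype and medians of 0.38 in KO and 0.76 in WT. Tnip1, a partner of the protein encoded by Tnfaip3, rose by 2.48 in KO (0.0126) and by 2.51 in WT (0.0135). Tnip3 rose by 1.66 in KO (0.0279) and had a change of 0.93 in WT (0.106). Tnfaip6, which encodes a hyaluronan-binding protein, was at 0.19 and 0.621 RPKM in KO with LPS, against 0 and 0 without, and at 1.46 and 2.26 RPKM in WT with LPS, against 0 and 0.0621 without. It passed the filter through the WT LPS libraries alone. Its call in WT and its part in the count and medians of this list are thus no support for a response. Tnfaip8l2, a negative regulator of immune responses, fell (log2 change -1.98 in KO, 0.0267, and -1.75 in WT, 0.036). For KO against WT, with or without LPS, and for the difference in response, 0 genes of these 5 lists passed in limma. The list calls rest on single libraries as the members' calls do. Over the 5 lists 15 were made in KO and 10 in WT. Those in WT include Tnfrsf9 and Tnfaip6, which passed the filter through LPS libraries alone and are no support for a response. In KO there were 0 without KO LPS A or KO untreated B, 1 without KO LPS B and 5 without KO untreated A. In WT there were 0 without WT LPS B or WT untreated A, 1 without WT untreated B and 5 without either KO LPS library. With no filter there was 1 in each genotype, and with the compared groups alone 8 in KO and 0 in WT.

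**Figure D4:**
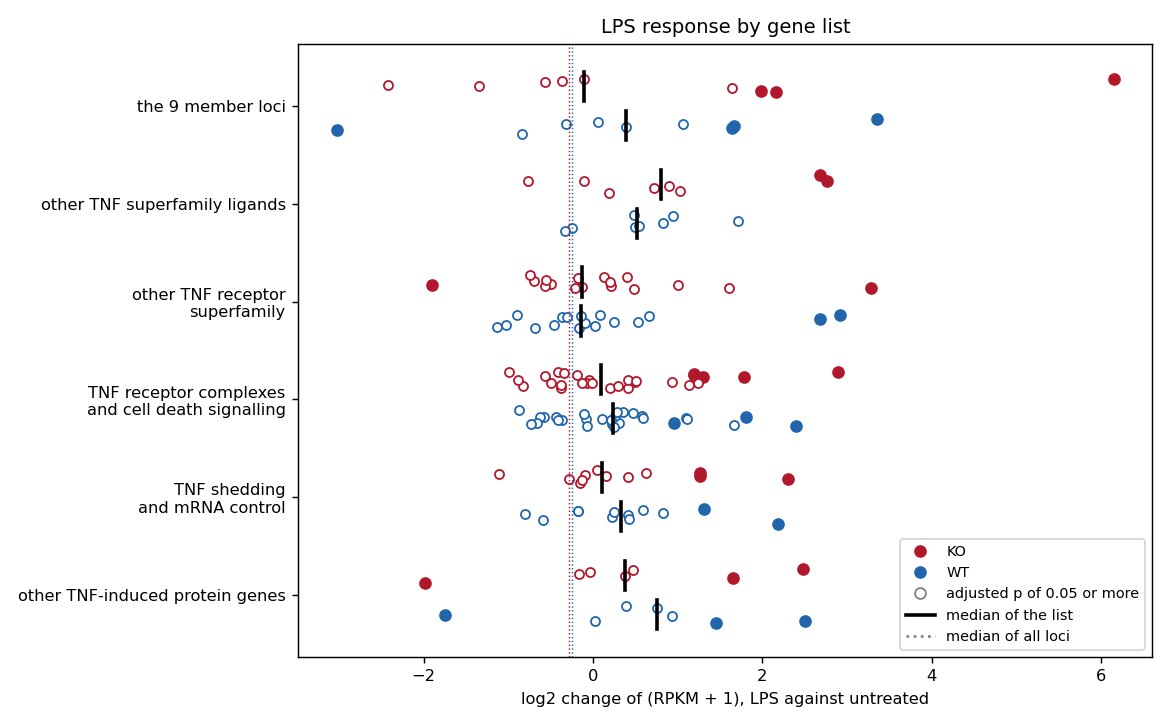
Log2 change of RPKM + 1 with LPS on the horizontal axis for the 9 loci and the tested genes of the 5 lists, in KO (red, upper row of each list) and WT (blue, lower row); filled points passed at an adjusted p under 0.05, black bars are list medians and dotted lines the medians of all loci, -0.28 in KO and -0.25 in WT. Tnf at 6.15 in KO is the point farthest to the right.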

How the data were processed

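RNA was measured in 8 libraries of peritoneal macrophages. Per the submitters' processing notes, bcl2fastq, TopHat2 2.0.14 and Cufflinks 2.2.1 were used on mm9. The authors deposited RPKM in a table of 24192 rows, of which 457 repeat a locus under another symbol, and each of the 23735 loci was used once. Annotation, strandedness and read pairing: not given in the sources used here. Depth came from the spacing of low values: 93.6% of 4187 low loci had whole multiples of a step (tolerance 0.1 read plus 0.02 per read), and 962 genes with 1 annotated transcript set the scale. Large multiples always meet that tolerance, and the share expected by chance was not computed.

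The 11272 loci that reached 1 RPKM in 2 or more libraries were fitted as log2(RPKM + 1) with limma 3.58.1 in R 4.3.3, with 1 mean per group over all 8 libraries and moderated variances with a trend. Tests were two-sided, with Benjamini-Hochberg adjustment over all loci, and a gene was called at an adjusted p under 0.05. The fit was run on simulated data with noise drawn independently for each library, no letter effect, and changes in KO with LPS alone. Those data do not cover libraries paired by letter. The members, lists and naming rule (all members; per list, called genes, at most 4 each way; receptors and neighbours of the members; the 5 genes most like Tnf) were chosen with earlier results of these data known. Deviations from group means correlated between groups by letter in 6 of 6 pairs of groups (r = 0.2 to 0.41), so the letter was taken to pair libraries, and values with it as a block are given where they change the call of a member or of a named gene of a list. Alternatives were a pseudocount of 0.1, no filter, a filter at 5 RPKM, median-ratio scaling, the block, the compared groups alone, and leaving out each library. Figures were made with Python 3.11.15 and matplotlib 3.10.9.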

Additional observations from a re-analysis of the deposited data

How the results depend on the processing

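The number of called members was 3 in KO and 4 in WT for the LPS response. With no filter on low values it was 0 in each, and over all loci the calls were 49 in KO and 56 in WT, against 746 and 711. With the replicate block for the library letter it was 6 in KO and 4 in WT, with 1611 and 1818 loci in all, and the block changed no other member's call. Over the 5 lists, for which all alternatives were added after seeing the data, it gave 20 calls in KO, against 15, and 17 in WT, against 10, and ended none. With the compared groups alone it was 4 in KO and 0 in WT, with 462 and 130 loci in all. Leaving out each library in turn gave 0 to 6 members in KO and 0 to 4 in WT, and 15 to 1546 and 9 to 2242 loci. With median-ratio scaling 456 loci were higher and 299 lower in KO, against 373 and 373, and 517 and 338 in WT, against 357 and 354. For KO against WT the members' count was 0 under each alternative run. Over all loci it was 3 without LPS, 21 with no filter and 3 to 5 when 1 library was left out. With LPS it was 1, and 25 with no filter, 4 with the compared groups alone and 0 to 6 when 1 library was left out. For the difference in response it was 4, and 7 with no filter, 0 with a pseudocount of 0.1, 0 with a filter at 5 RPKM and 1 to 7 when 1 library was left out.

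Of 251 member values under the settings that keep all libraries of a comparison, 233 kept their direction and side of the threshold, 11 lost and 5 gained a call, and 2 turned in direction. Those were Tnfsf10 with LPS in KO, at 0.09 with a pseudocount of 0.1 and 0.06 with median-ratio scaling. Of 360 values with 1 library left out, 302 kept both, 27 lost and 8 gained a call, and 23 turned, none of them called in either fit. The ranges of the results concerned were as follows. With LPS, Tnfsf10 in KO ranged from -0.79 to 0.59 and Ripk1 in WT from -0.21 to 0.33. For KO against WT without LPS, Tnfsf10 ranged from -0.14 to 1.24, the Tnfsf12 and Tnfsf13 locus from -0.37 to 0.34, Ripk1 from -0.12 to 0.01 and Tnfaip2 from -0.81 to 0.03. With LPS, Tnfrsf1b ranged from -0.26 to 0.22, Tnfsf10 from -0.14 to 0.27, the Tnfsf12 and Tnfsf13 locus from -0.22 to 1.41, Tnfsf13b from -0.23 to 0.24 and Tnfaip2 from -0.45 to 0.37. For the difference in response, Tnfsf10 ranged from -1.17 to 0.21, the Tnfsf12 and Tnfsf13 locus from -0.21 to 1.42 and Tnfaip2 from -0.07 to 0.77. Where a call was lost or a direction turned, the cause was not tested.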
